A study of Rattus norvegicus with 22 samples.

Results

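The insulin receptor signalling genes described here are 7 genes of rat liver, namely Ptprf, Irs2, Shc1, Grb2, Pdpk1, Mapk3 and Mapk9. They were found by their title in the larger of 2 deposited tables, where they take 8 of 1365 rows, because Mapk9 is listed with 2 transcripts. That table has 1325 gene titles and holds male animals, and the smaller table, of females, has 0 rows for any of the 7 genes among its 69 rows. Liver RNA was sequenced from male Wistar rats at postnatal day 110, from 6 offspring of mothers on a control diet (controls) and 5 offspring of mothers on an obesogenic diet (maternal obesity, MO), with 1 library per animal. The labels give no allele, drug treatment, litter, feeding state or hour of collection, so the p-values reflect variation among these rats only. The values are reads scaled to a common library total (RPM), which are not scaled to transcript length, so levels are compared between animals and not between genes.

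The insulin receptor is a tyrosine kinase of the cell surface. Once insulin binds, it phosphorylates the substrates IRS1 and IRS2 and the adaptor SHC1. The IRS proteins recruit phosphoinositide kinase, whose lipid product brings PDPK1 and AKT together, and AKT then restrains glucose output and the FOXO transcription factors. SHC1 and GRB2 link the same receptor to RAS and the ERK kinases, of which Mapk3 encodes ERK1. In liver, Irs2 is known as a transcript that is high in the fasted state and low after feeding.

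The members had no common direction as deposited. Irs2 was 1.56 times as high in MO males as in controls, while the other 6 genes, in 7 rows, were at 64.7% to 71.0% of the control level, on the log2(RPM + 1) scale. The rows of the table had been selected for a difference between these same animals: no row had a deposited p above 0.0496 or a change smaller than 0.48 on the log2 scale. All 8 rows passed the limma threshold (adjusted p under 0.05), and so did every row of the table, with 96.5% of rows lower and 3.52% higher. Passing is therefore no result about these genes, and the values below describe them. The change of the lower rows, -0.63 to -0.49 (median -0.56), lay around the median of all 1365 rows, which was -0.58.

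**Figure D1:**
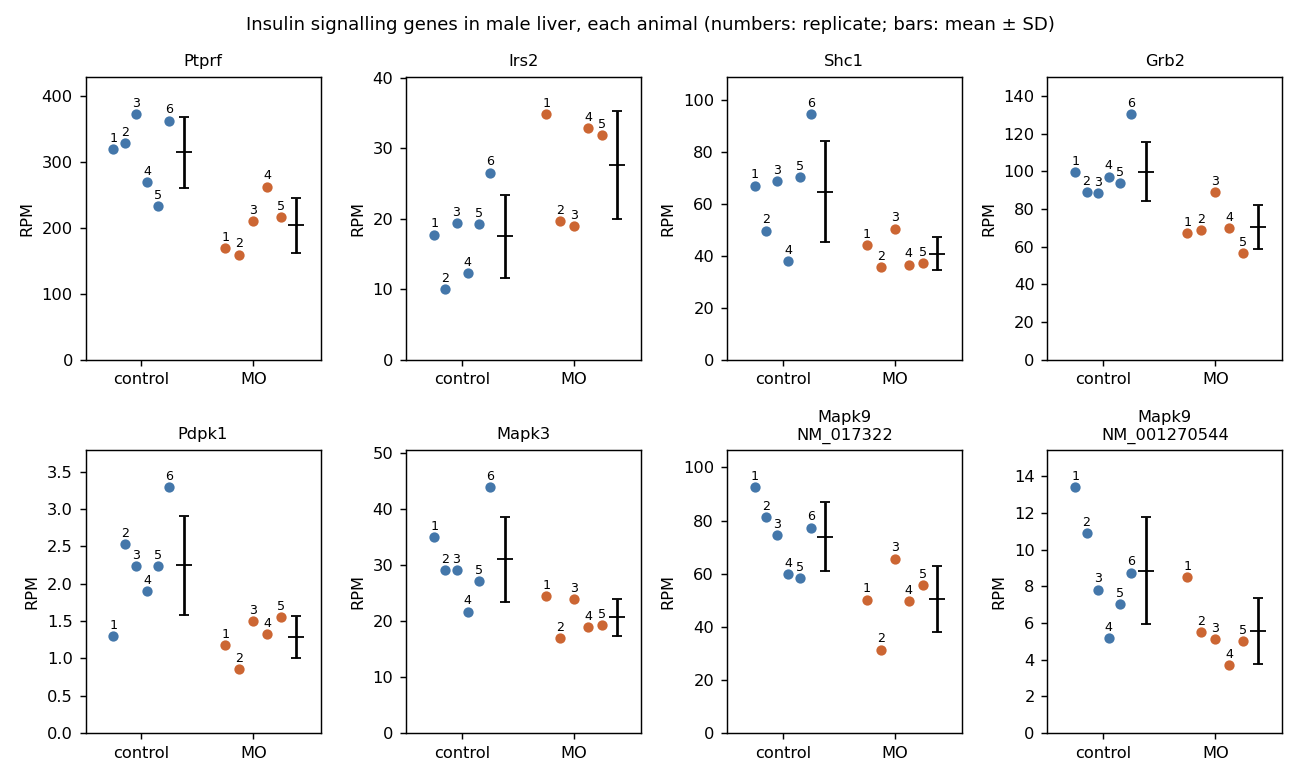
RPM of the 8 insulin signalling rows in each male (points, numbered by replicate; control in blue, MO in orange), with mean ± SD beside each group and a y axis from 0. Irs2 was at 19.0 to 34.9 RPM in MO males against 9.99 to 26.6 in controls, and in the other 7 panels the MO mean lies under the control mean, with some overlap of the animals in each.

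Upstream sequence was listed in the RefSeq promoter table (build GRCr8) for 3 of the 7 genes, Ptprf, Shc1 and Pdpk1, and is shown for that reason. Being lower does not set these 3 apart, as Grb2, Mapk3 and Mapk9 were lower too, like 96.5% of all rows. No entry for Irs2, Grb2, Mapk3 or Mapk9 was found in the promoter table. Each line gives the 250 bases before the start that the table uses, 5′ to 3′ on the gene's strand, with GC boxes in capitals (GGGCGG, or CCGCCC on the other strand). These starts lie 13979, 2899 and 8051 bases downstream of the outermost annotated start of Ptprf, Shc1 and Pdpk1, so other starts of the genes are not covered.
Ptprf: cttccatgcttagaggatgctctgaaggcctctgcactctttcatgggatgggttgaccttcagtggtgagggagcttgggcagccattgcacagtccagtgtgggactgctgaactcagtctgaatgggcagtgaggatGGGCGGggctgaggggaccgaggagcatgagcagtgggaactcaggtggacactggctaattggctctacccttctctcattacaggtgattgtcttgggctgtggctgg
Shc1: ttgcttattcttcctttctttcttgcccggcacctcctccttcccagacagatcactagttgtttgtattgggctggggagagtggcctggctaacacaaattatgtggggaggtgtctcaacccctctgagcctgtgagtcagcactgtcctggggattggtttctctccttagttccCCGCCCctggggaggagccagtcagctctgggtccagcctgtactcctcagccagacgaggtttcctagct
Pdpk1: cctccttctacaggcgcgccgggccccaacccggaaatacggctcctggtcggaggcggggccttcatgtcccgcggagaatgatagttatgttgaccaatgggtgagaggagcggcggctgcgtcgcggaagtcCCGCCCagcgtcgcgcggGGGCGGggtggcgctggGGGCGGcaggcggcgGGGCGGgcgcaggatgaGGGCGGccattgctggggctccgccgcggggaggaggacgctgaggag
The windows are chr5:137095427-137095676 on the minus strand for Ptprf, chr2:177138298-177138547 on the plus strand for Shc1 and chr10:13679176-13679425 on the minus strand for Pdpk1. Pdpk1 had 5 GC boxes in a window of 72.8% G and C, and Ptprf and Shc1 had 1 each at 56.4% and 55.2%. Of all 33469 windows of this length, 30.5% held a GC box. The forkhead core TGTTTAC (or GTAAACA), found in 3.21% of windows, and the E-box CACGTG, found in 5.59%, had 0 matches in each of the 3. A match is a string of letters and was not tested as a binding site.

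Ptprf (NM_019249, chromosome 5 in the deposited table) encodes LAR, a receptor-type tyrosine phosphatase that can dephosphorylate the insulin receptor. It was at 233, 323 and 372 RPM in controls (lowest, median and highest) and at 169, 159, 210, 262 and 216 RPM in MO males 1 to 5. Only MO male 4 lay within the control range, and 4 of 5 MO animals were below every control. The means were 313.8 ± 53.9 RPM (SD, n = 6) and 203.3 ± 41.2 RPM (SD, n = 5). In log2 units the fitted difference came to -0.63, with an SE of 0.18 and a limma adjusted p of 0.0074. This was the largest decrease among the 8 rows, and it ranked 484 by size among the 1317 lower rows of the table.

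Irs2 (NM_001168633) encodes a docking protein that carries the signal from the receptor to phosphoinositide kinase. It was at 9.99, 18.5 and 26.6 RPM in controls (lowest, median and highest). MO males 1, 4 and 5 had 34.9, 32.9 and 31.9 RPM, more than every control, whereas numbers 2 and 3 of that group had 19.7 and 19.0 RPM, near the control median. The groups therefore overlapped. The means were 17.6 ± 5.87 RPM (SD, n = 6) and 27.7 ± 7.71 RPM (SD, n = 5), a log2 fold change of 0.65 with an SE of 0.23 and a limma adjusted p of 0.012. This was a modest change for its direction, as 34 of the 48 higher rows had a larger one. Its p in the authors' deposited table was 0.0421.

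Shc1 (NM_053517, chromosome 2) encodes the adaptor that the receptor phosphorylates beside the IRS proteins. Its controls were the less uniform group, at 38.1, 67.9 and 94.6 RPM (lowest, median and highest; coefficient of variation 30.0%). MO males 1 to 5 were at 44.3, 35.8, 50.5, 36.7 and 37.1 RPM, with a coefficient of variation of 15.6%. Control male 4, at 38.1 RPM, and control male 2, at 49.7 RPM, lay among the MO animals, and the other 4 controls were above all of them. The limma fit put the difference at -0.61 in log2 units, with an SE of 0.20 and an adjusted p of 0.011.

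Grb2 (NM_030846, chromosome 10) encodes the adaptor that binds phosphorylated SHC1 and IRS proteins and brings in the RAS activator SOS. It was at 88.6, 95.6 and 130.5 RPM in controls (lowest, median and highest) and at 67.3, 68.8, 88.9, 69.7 and 56.6 RPM in MO males 1 to 5. MO male 3 reached the lower edge of the controls, and the other 4 MO animals were below every control. MO males thus differed by -0.50 in log2 units, with an SE of 0.17 and a limma adjusted p of 0.011. Control male 6 stood apart at 130.5 RPM, and without it the log2 fold change of Grb2 was -0.42.

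Pdpk1 (NM_031081, chromosome 10) encodes the kinase that phosphorylates AKT in its activation loop. It was the most thinly covered member. Its values stood for 13 to 31 reads per control library and 9 to 18 reads per MO library, as read from the value of 1 read in each library. It was at 1.30, 2.24 and 3.29 RPM in controls (lowest, median and highest) and at 1.17, 0.855, 1.5, 1.32 and 1.55 RPM in MO males 1 to 5. Control male 1, at 1.30 RPM, lay among the MO animals and the other 5 controls were above them. The difference of -0.49 in log2 units (limma SE 0.18, adjusted p = 0.013) depended on the pseudocount at this level, and was -0.74 with a pseudocount of 0.1 and -0.20 with a pseudocount of 5. Against control males 1 and 5 alone it was -0.27, without a call (limma adjusted p = 0.27). The lost call is not particular to Pdpk1: with these fewer animals 531 of all 1365 rows passed, and 2 of the 8 member rows.

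Mapk3 (NM_017347, chromosome 1) encodes ERK1, the last kinase of the RAS branch. It was at 21.7, 29.1 and 43.9 RPM in controls (lowest, median and highest) and at 24.4, 16.9, 23.9, 18.9 and 19.2 RPM in MO males 1 to 5. Control male 4 was within the MO range and 5 controls were above every MO animal. In log2 units the fitted difference came to -0.54, with an SE of 0.18 and a limma adjusted p of 0.011.

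Mapk9 encodes JNK2, a stress-activated kinase of the family that phosphorylates IRS proteins on serine and so weakens their signalling. Its more abundant transcript (NM_017322, chromosome 10) was at 58.2, 75.9 and 92.6 RPM in controls (lowest, median and highest) and at 50.2, 31.3, 65.7, 49.6 and 55.8 RPM in MO males 1 to 5. MO male 3 lay inside the control range and the other 4 MO animals below it. The limma fit put the difference at -0.56 in log2 units, with an SE of 0.19 and an adjusted p of 0.011. The less abundant transcript (NM_001270544) was at 5.19, 8.28 and 13.4 RPM in controls and at 8.52, 5.48, 5.12, 3.68 and 5.02 RPM in MO males 1 to 5. MO males thus differed by -0.57 in log2 units, with an SE of 0.21 and a limma adjusted p of 0.015. The call was lost without MO male 4 (-0.46, limma adjusted p = 0.051).

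The 2 Mapk9 transcripts share sequence, and how reads that fit both were assigned is not given in the sources used here, so they are not independent. The less abundant one took 10.5% ± 1.66 of the summed Mapk9 RPM in controls (SD, n = 6). In the 5 MO males its part was 10.4% ± 3.99 (SD, n = 5), a difference of -0.12 percentage points (two-sided exact permutation p = 0.94 over 462 splits). Both transcripts had been listed as lower between these same animals, which limits how far their shares can differ. This p therefore does not show that the share is unchanged. The MO animals were divided, with 14.5% and 14.9% in MO males 1 and 2 and 6.91% to 8.26% in MO males 3, 4 and 5, against 7.99% to 12.6% in controls. The summed level was 82.8 ± 15.9 RPM (SD, n = 6) in controls and 56.1 ± 12.5 RPM (SD, n = 5) in MO males.

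**Figure D2:**
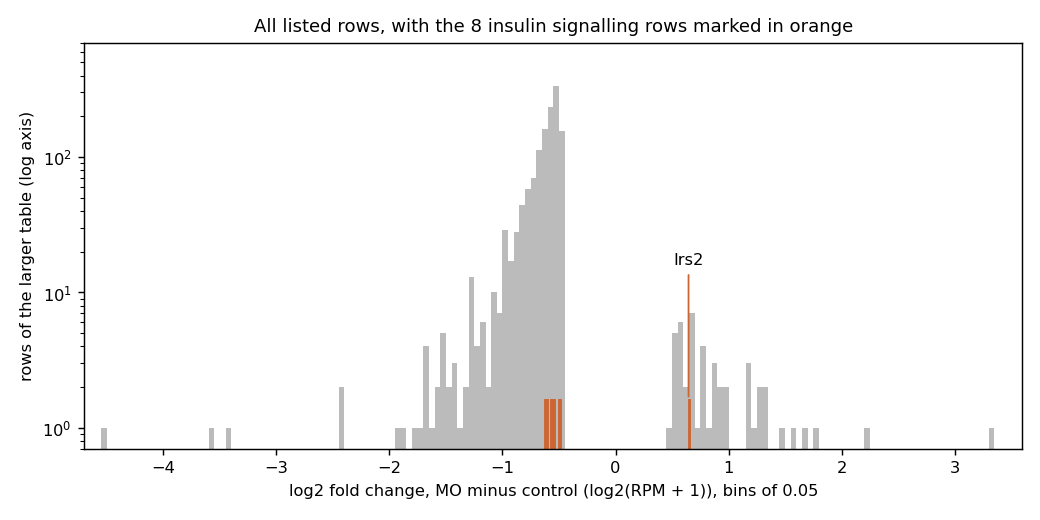
Number of rows of the larger table (y, log axis) by log2 fold change between MO and control males (x, on log2(RPM + 1), bins of 0.05), with the 8 insulin signalling rows as orange ticks. The gap around 0 is the selection of the table (no change under 0.48), the 7 lower rows sit in the densest bins, and Irs2 is among the 48 higher rows.

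The libraries differed in a way that bears on all 8 rows. The median log2 value over the table was -0.77 to -0.43 in MO males and -0.20 to 0.44 in controls, relative to the control mean, with control male 6 the highest. Control male 6 was the highest control for Irs2, Shc1, Grb2, Pdpk1 and Mapk3, 5 of the 8 rows. The listed transcripts took 9.61% to 15.2% of reads in controls and 6.56% to 8.66% in MO males. Rmrp, an RNA without a poly(A) tail, had 36.9 to 51.2 RPM in 4 controls (2, 3, 4 and 6). Controls 1 and 5 had 1.20 and 1.52 RPM of it, and the MO animals 1.71 to 3.11 RPM. The part of these library differences in the members' values was not tested. Depth read from the values was 7890000 to 11170000 reads in controls and 10530000 to 11590000 in MO males.

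Each library was therefore also centred on its median over the table, which states a change relative to the listed transcripts. Centring took away an average shift of -0.58, and since 1317 of 1365 rows had been listed as lower, it moves every row up. Irs2 was then at 1.23 log2 units, with an SE of 0.19 and a limma adjusted p of 0.000705, a 2.35-fold difference with a 95% interval of 0.83 to 1.63 on the log2 scale. The other 7 rows were at -0.04 to 0.09, on both sides of 0 and each with an interval across it, so no direction is given for them on this scale. For these rows the smallest limma adjusted p was 0.997 (smallest unadjusted p = 0.47), and their 95% intervals reached from -0.47 to 0.50 at the widest, for the less abundant Mapk9 transcript. Of the 8 rows 1 passed after centring, against 5.27% of the table, where 72 rows passed, 48 higher and 24 lower. The 48 are as many as the rows listed as higher, so passing on this scale does not set Irs2 apart from them.

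**Figure D3:**
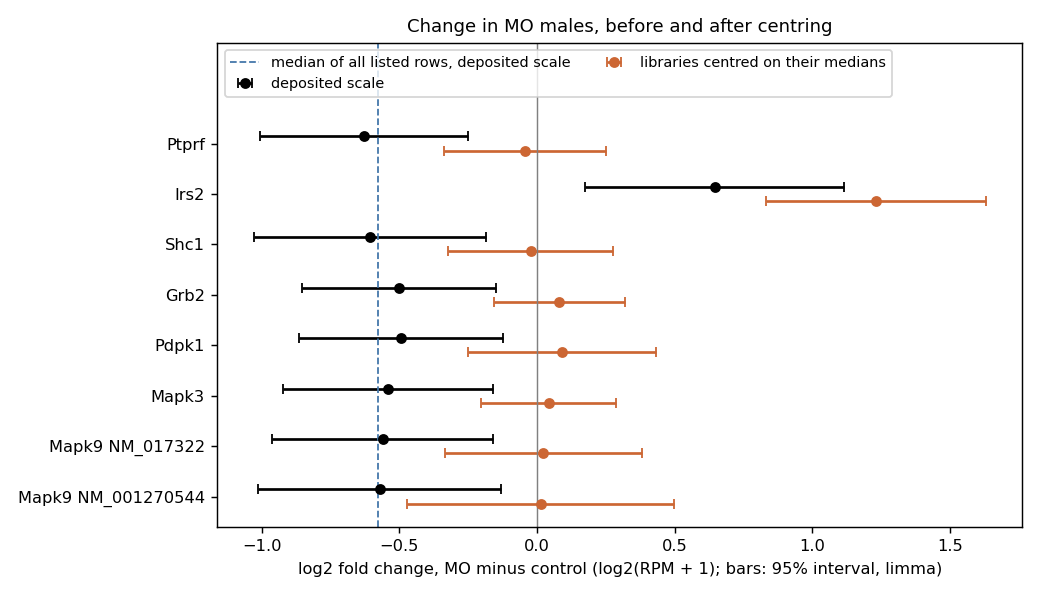
Log2 fold change between MO and control males (x, on log2(RPM + 1)) with its 95% limma interval for each of the 8 rows (y), as deposited in black and after centring in orange. As deposited, the 7 lower rows straddle the dashed table median of -0.58, and after centring they lie at -0.04 to 0.09 with intervals across 0, while Irs2 moves from 0.65 to 1.23.

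The overlap of the groups also differed between the scales. MO animals below every control went from 4 to 1 of 5 for Ptprf, from 3 to 0 for Mapk3 and from 4 to 0 for Grb2, where 2 were then above every control. As deposited, 0 of 8 rows had groups that did not overlap, against 30.6% of all rows. After centring, all 5 MO animals were above all 6 controls for Irs2, the lowest MO value (male 3) being 0.33 and the highest control value (male 5) -0.01. This was the case for 1 of 8 rows, against 3.96% of the table, and for 41 of its 48 higher rows. The two-sided exact permutation p of Irs2 was 0.041 as deposited and 0.0022 after centring, the smallest that 462 splits can give. Irs2 had been listed for a difference between these same animals, and centring moved it further up, so these p-values only describe it. Adjusted over the table, the exact permutation p after centring was 0.080, and by that test 0 of the 1365 rows passed, with 117 at an unadjusted p under 0.05. Against control males 1 and 5 alone, the controls whose Rmrp resembled that of the MO males, Irs2 was at 0.51 as deposited (limma adjusted p = 0.096) and at 1.03 after centring (limma adjusted p = 0.040).

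**Figure D4:**
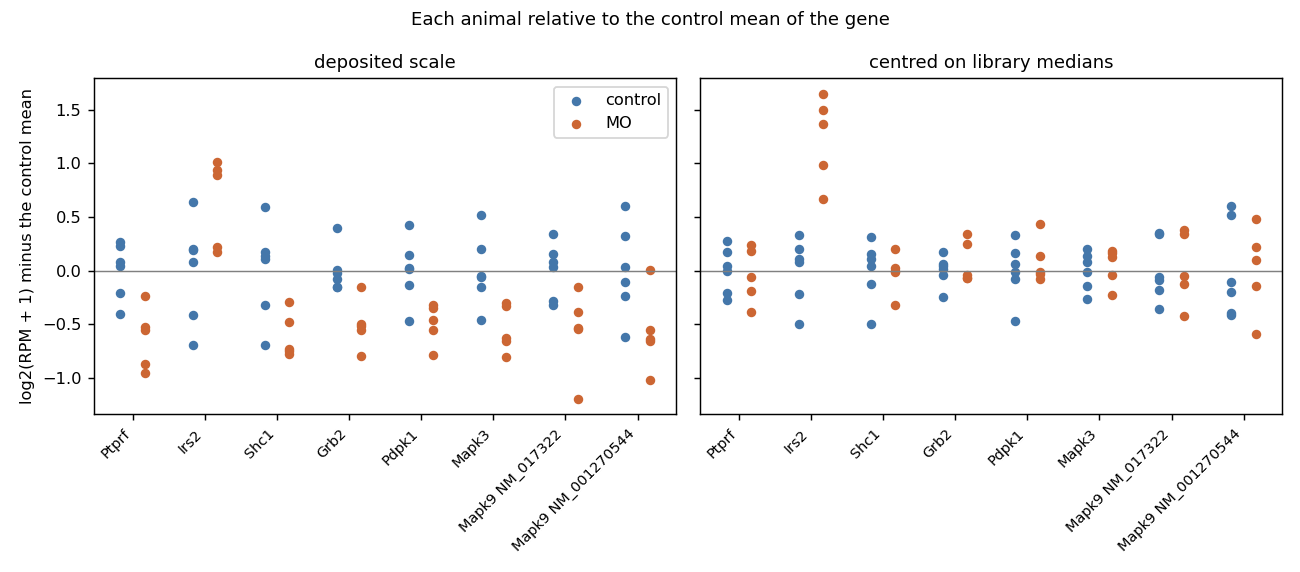
Log2(RPM + 1) of each animal minus the control mean of the row (y) for the 8 insulin signalling rows (x), as deposited on the left and centred on library medians on the right, with controls in blue and MO males in orange. On the left the groups overlap in every row, and on the right the 5 MO values of Irs2 lie above all controls while the groups of the other 7 rows intermingle.

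Wider lists of the pathway were also looked up in the table. Of 113 genes in lists of hormones and receptors, adaptors, RAS and MAP kinases, phosphoinositide kinase and AKT, the mTOR branch, the FOXO and GSK3 branch, and inhibitors, 10 were listed, 3 higher and 7 lower, with a median log2 fold change of -0.52 beside -0.58 for all rows. The 7 members are among these 10. The share of all liver genes that were listed is not known, so 10 of 113 is not read as few or many. None of the 7 hormone and receptor genes, which include Insr and Igf1r, and none of the 15 mTOR genes was listed, and since unlisted transcripts are not analysed here, their levels are not known.

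The other 3 listed genes differed by more, as deposited, than any of the members. Socs2, a feedback inhibitor of cytokine and growth hormone receptors, was at 6.18 ± 6.29 RPM (SD, n = 6) in controls and 27.1 ± 16.8 RPM (SD, n = 5) in MO males, a log2 fold change of 2.23 ± 0.44 (SE). Dusp1, a phosphatase that inactivates MAP kinases, was at 75.9 ± 14.7 RPM (SD, n = 6) and 127.0 ± 48.4 RPM (SD, n = 5), a log2 fold change of 0.68 ± 0.21 (SE). Like Irs2, both passed after centring, at 2.81 and 1.27. On that scale 48 higher rows passed, as many as the table listed as higher, so passing is not particular to these genes. Ppp1r3c, which brings a phosphatase to glycogen, had 81.7 ± 29.3 RPM in controls (SD, n = 6) and 28.8 ± 14.03 RPM in MO males (SD, n = 5) and was at -0.94 after centring (limma adjusted p = 0.17).

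Of 19 genes known to respond to insulin in liver, 17 had a symbol in the gene reference used, and 2 were listed in males. The smaller table, of females, had 2 rows for genes of this list. Pdk4, which is held down by insulin, encodes an inhibitory kinase of pyruvate dehydrogenase. It had 33.1 to 80.3 RPM in MO males against 10.6 to 18.3 RPM in controls. The groups did not overlap, as in 30.6% of all rows as deposited. The log2 fold change of Pdk4 went from 1.66 to 2.24 with centring. Nr1h3, the oxysterol receptor LXR alpha, had 92.5 to 156.3 RPM against 146.3 to 272.8 RPM, and its log2 fold change went from -0.54 to 0.04 with centring. Pck1, Fasn and Srebf1, also in that list, were not in the larger table, so their levels are not known. Gluconeogenic and lipogenic genes outside the list were not looked up here.

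Genes that varied between animals like the members were sought after the group means and the library medians had been taken out. Library differences that are not the same in every row can remain in these values. Over the 11 males, Irs2 was most like Kctd9 (Pearson r = 0.88) and the cytochrome Cyp2d5 (0.87), both of which were lower in MO males as deposited (-0.58 and -0.82). Shc1 was most like Vcp, an ATPase of protein quality control (0.93), and Cdc37l1 (0.91). The more abundant Mapk9 transcript was most like Pgpep1 (0.95) and Cdh1, the epithelial cadherin (0.86), and the less abundant one most like Sec22a (0.84) and Tap2 (0.84). Grb2 was most like Qprt (0.88) and Tars2 (0.86), Mapk3 most like Slc39a7 (0.85) and Xrcc5 (0.84), Pdpk1 most like Ppp6r2 (0.82) and Cited2 (0.80), and Ptprf most like Ppt1 (0.81) and Zfp955a (0.80). Each pair is the highest of the correlations with listed rows of other genes over the same 11 libraries. Rows with a LOC, RGD or blank title were left out. These are descriptions without a test.

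Of 30 markers of other liver cell types 5 were listed (Krt19 and Epcam of bile duct cells, Pdgfrb and Des of stellate cells, Vwf of endothelium), and the other markers are not analysed here. All 5 were lower, as were 96.5% of all rows, with a median log2 fold change of -0.63 beside -0.58 for the table. Their summed level was 49.2 to 61.6 RPM in controls and 27.7 to 40.1 RPM in MO males. Of the 7 hepatocyte markers Cps1 was listed, at -0.52 ± 0.19 (SE). After centring, these 6 genes were at -0.12 to 0.10. No Kupffer cell, lymphocyte, neutrophil or erythroid marker was listed. The part of cell composition in the members' values was not tested, and in bulk tissue fewer cells of a type and less RNA per cell cannot be told apart.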

How the data were processed

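Liver libraries of 22 rats were made from total RNA with an Illumina TruSeq kit, per the labels' protocols. Per the submitters' processing notes, Partek, STAR 2.3.1j and build rn5 were used, in roles not stated. How reads were counted is not given in the sources used here. Values deposited by the authors are taken as RPM with 1 added: the lowest is exactly 1, and after subtracting 1, 81.4% to 86.8% of a male library's values under 9 RPM are multiples of 1 step within 0.02 of a read. The rest are fractional, so no count test was run. Their deposited fold column, from the authors, holds the size of a log2 difference, recomputed within 0.006 for 1365 of 1365 rows, and the authors' deposited p-values are unadjusted. Of the rows, 18 repeat a transcript.

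The 6 control and 5 MO males were compared in R 4.3.3 by a moderated linear model with an intensity trend (limma 3.58.1). The input was log2(RPM + 1), a pseudocount of 1 that understates changes of low genes, with Benjamini-Hochberg adjustment over all 1365 rows at 0.05. The spread was estimated from rows selected for a difference, which makes these p-values too small. All 7 members, up to 6 genes per wider list and the 2 genes most like each member were named. Members, lists, rules and the use of control males 1 and 5 alone were chosen with earlier results of these data known. Replicate numbers were not taken to pair animals.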

Additional observations from a re-analysis of the deposited data

Results flagged for a closer look

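Of 16 combinations of a member row and a group, 1 held an animal far from the others. Control male 6 had 130.5 RPM of Grb2, and the next control had 99.6 RPM, a gap of 0.74 of the group's whole range. The limit used for such gaps (Dixon's 95% value) is passed by chance in about 1 in 20 groups. The same animal had the highest library median of the controls (0.44 above the control mean on the log2 scale). After centring on library medians, Grb2 of control male 6 was at 2.12 log2 units, within the control range of 1.91 to 2.33. Whether the library difference accounts for the Grb2 value was not tested.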

How the results depend on the processing

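Centring each library on its median, fixed among the alternatives, left 72 of 1365 rows past the limma threshold and 1 of the 8 member rows, Irs2. Of the 72, 48 were higher, as many as the table listed as higher. Under this centring Grb2 was at 0.0818, Pdpk1 at 0.0901, Mapk3 at 0.0428, Mapk9 NM_017322 at 0.0236 and Mapk9 NM_001270544 at 0.0134, and Ptprf and Shc1 at -0.04 and -0.02, each with an interval across 0. The median used is that of rows selected as mostly lower, so the scale of the unlisted transcripts is unknown. Against control males 1 and 5 alone, with fewer animals, 531 rows and 2 member rows passed (Shc1 and Mapk9 NM_001270544), and the other 6 kept their direction without a call. With a pseudocount of 5, 3 member rows lay above the table's median change in place of 6; the cause was not tested. Leaving out each animal in turn gave 1282 to 1364 rows, 7 to 8 member rows, and 4 to 7 member rows above the median change. The exact permutation test lost Mapk9 NM_001270544 (adjusted p = 0.0505). For Irs2 after centring, alternatives added after seeing the data gave 1.13 to 1.37 without each animal, and 1.23 with an exact permutation adjusted p of 0.080. With the replicate number as a block 1344 rows and 8 of 8 member rows passed, and Irs2 was at 0.77 (1.27 after centring); same-numbered animals deviated together with correlations of -0.10 to 0.15, so the numbers were not taken as pairs. Of the members Pdpk1, at 9 to 31 reads, is the most limited by depth.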
